A study of Homo sapiens with 12 samples.

Results

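*BHLHE40*, its paralogue *BHLHE41* and 8 feedback and output genes of the circadian clock (*PER1*, *PER2*, *PER3*, *CRY1*, *CRY2*, *NR1D1*, *NR1D2* and *DBP*) were followed in ZR-75-1, a human breast cancer line that expresses the oestrogen receptor. These 10 of 60612 gene rows were selected by symbol. *BHLHE40* was chosen from the measurements, because it rose after abemaciclib in both genotypes, so its values are described here without a test. The other 9 were named for their function in the clock, with earlier results of these data known. RNA was sequenced from 4 groups with 3 biological replicates each: control cells (sgControl) in DMSO, sgControl cells in abemaciclib, *RB1*-knockout cells in DMSO and *RB1*-knockout cells in abemaciclib. Control cells had received a non-targeting guide RNA and knockout cells a guide RNA against *RB1*, which encodes the retinoblastoma protein. Cells were kept for 5 days in 500 nM abemaciclib, which blocks CDK4 and CDK6, the kinases that inactivate the retinoblastoma protein, or in the same volume of DMSO. Each genotype was represented by isogenic clones made by CRISPR editing, so an effect of *RB1* loss and a property of the clones cannot be told apart. The sources used here give no time of day for the harvest, so a change in the level of a clock transcript and a change in the phase of a cycling one cannot be told apart either. In these bulk libraries, fewer cells expressing a gene and less of its RNA per cell also cannot be told apart.

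The mammalian clock is a feedback loop of transcription. CLOCK and BMAL1 bind E-boxes and activate the *PER* and *CRY* genes, whose products return to the nucleus and repress CLOCK and BMAL1. In a connected loop, the nuclear receptors NR1D1 and NR1D2 (REV-ERBα and REV-ERBβ) repress *BMAL1*, while the ROR receptors activate it. BHLHE40 and BHLHE41 (DEC1 and DEC2) are basic helix-loop-helix repressors that bind the same E-boxes as CLOCK and BMAL1. DBP is an activator at D-boxes and carries the clock to output genes. Many of these genes also answer to signals outside the clock, and *BHLHE40* is known as a gene induced by hypoxia and by growth and hormone signals.

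The promoters of several members hold the elements on which this loop acts. All 10 members had a window in RefSeq's promoter table on GRCh38.p14, and 3 of them (*PER3*, *CRY2* and *NR1D2*) had windows at 2 start sites, which gives these more room for a match. The 250 bases before each start were searched on both strands for the E-box CACGTG, the related CACGTT (E-prime box), the D-box TTANGTAA, the ROR and REV-ERB half-site AGGTCA, the cyclic AMP response element TGACGTCA and the E2F motif TTTNNCGC, and no matches overlapped. The E-box was found in 4 members (*BHLHE40*, *BHLHE41*, *PER1* and *NR1D2*), against 6.34% of 35116 such windows in the table. The E-prime box was found in 4 others (*PER2*, *CRY1*, *CRY2* and *NR1D1*), against 4.55% of windows. D-boxes were in *PER3* and *NR1D2* (1.98% of windows), half-sites in *PER1* and *CRY2* (12.1%), the E2F motif in *DBP* alone among the members (5.92%), and the cyclic AMP element in 0 members (1.65%). A match is a description of letters and not a measured binding site. The windows of *BHLHE40* and its paralogue are shown because both carry the E-box that their own proteins bind. Those of *NR1D2*, *CRY1* and *DBP* are shown because these are the 3 members that fell in sgControl cells, and they hold different elements. All matches are in capitals, and sequences run 5′ to 3′ on the strand of the gene.
BHLHE40 promoter, chr3:4979187-4979436, plus strand: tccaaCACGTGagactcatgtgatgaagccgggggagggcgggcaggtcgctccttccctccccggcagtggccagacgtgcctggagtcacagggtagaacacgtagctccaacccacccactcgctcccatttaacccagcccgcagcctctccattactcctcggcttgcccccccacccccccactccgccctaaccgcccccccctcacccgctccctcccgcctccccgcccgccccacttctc
BHLHE41 promoter, chr12:26125038-26125287, minus strand: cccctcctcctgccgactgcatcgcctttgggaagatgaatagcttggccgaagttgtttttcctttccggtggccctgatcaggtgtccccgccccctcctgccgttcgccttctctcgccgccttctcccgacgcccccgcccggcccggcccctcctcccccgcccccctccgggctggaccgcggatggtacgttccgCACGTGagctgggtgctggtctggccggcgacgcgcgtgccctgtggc
NR1D2 promoter at its downstream start, chr3:23945871-23946120, plus strand: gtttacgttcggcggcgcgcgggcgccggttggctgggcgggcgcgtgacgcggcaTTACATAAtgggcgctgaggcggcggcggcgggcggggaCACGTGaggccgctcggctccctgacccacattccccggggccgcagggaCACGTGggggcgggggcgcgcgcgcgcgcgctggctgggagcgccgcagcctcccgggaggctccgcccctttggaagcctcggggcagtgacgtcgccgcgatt
CRY1 promoter, chr12:107093550-107093799, minus strand: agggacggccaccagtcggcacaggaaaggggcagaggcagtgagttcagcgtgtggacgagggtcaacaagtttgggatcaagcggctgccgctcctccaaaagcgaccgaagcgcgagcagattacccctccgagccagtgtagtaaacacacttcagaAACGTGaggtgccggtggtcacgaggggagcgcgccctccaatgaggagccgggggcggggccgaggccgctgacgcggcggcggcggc
DBP promoter, chr19:48637380-48637629, minus strand: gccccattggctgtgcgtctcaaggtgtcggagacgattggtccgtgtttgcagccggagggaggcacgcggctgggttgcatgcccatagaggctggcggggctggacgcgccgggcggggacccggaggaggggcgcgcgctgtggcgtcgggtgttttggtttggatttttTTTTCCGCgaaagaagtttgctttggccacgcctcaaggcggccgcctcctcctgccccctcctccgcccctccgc
The E-box lay 245 to 240 bases before the start of *BHLHE40* and 48 to 43 bases before that of *BHLHE41*. *NR1D2* held a pair of E-boxes, 155 to 150 and 105 to 100 bases before its downstream start, with a D-box at 194 to 187. The window at its upstream start held no match to any motif searched. The downstream window lies within an intron of the longer *NR1D2* transcript, and part of the *BHLHE41* window is an exon of an uncharacterized long non-coding RNA on the same strand. In *CRY1* the E-prime box, read on the other strand, lay 89 to 84 bases before the start, and the E2F motif of *DBP* lay 76 to 69 bases before it.

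The libraries held 39907318 to 81636393 counts. Normalized counts are counts divided by a size factor for the library. *RB1* itself had 4154 to 4825 normalized counts in sgControl cells in DMSO and 2252 to 2489 in abemaciclib. In the knockout it had 39.6 to 63.5, so no library went against the genotype in its label. These counts do not check the label of treatment. Over 11885 genes, replicate 1 of sgControl in DMSO stood furthest from the other replicates of its group, at a root mean square of 0.28 on the log2 scale. Replicate 3 of that group was at 0.22 and the other 10 libraries were at 0.11 to 0.16. Mitochondrial transcripts took 2.82% to 3.99% of the counts in untreated and 7.22% to 8.53% in drug-treated sgControl cells, and 3.78% to 4.13% and 5.44% to 7.39% in the knockout. All 9 luminal markers were expressed in every library (*ESR1* at 6157 to 18712 normalized counts). The 3 basal, 2 endothelial and 3 leukocyte markers summed to at most 12.1, 3.23 and 15.0 normalized counts. Of 3 fibroblast markers, *COL1A2* was at most 2.26 and *PDGFRB* at most 18.3, but *COL1A1* was abundant and higher in abemaciclib in both genotypes. The summed fibroblast list ran from 2114 to 2410.2 in untreated and from 2799.6 to 3037 in drug-treated sgControl cells, and from 1894 to 2060.3 and 2567 to 2675 in the knockout. The part of these shifts in the results was not tested.

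*BHLHE40*, the repressor for which the set was chosen, was by far the most variable member. In sgControl cells it had 5492, 5995 and 6434 normalized counts in DMSO and 23772, 27530.2 and 25142 in abemaciclib. In *RB1*-knockout cells it had 1583, 1746 and 1730.2 in DMSO and 4799, 4881 and 4933 in abemaciclib. The 4 groups did not overlap, and the knockout under abemaciclib lay below untreated sgControl cells. The log2 fold change with abemaciclib was 2.09 ± 0.07 (SE), a 4.26-fold difference, in sgControl cells and 1.53 ± 0.08, a 2.89-fold difference, in the knockout. Their difference was −0.56 ± 0.10. Between genotypes, the log2 fold change of the knockout against sgControl was −1.82 ± 0.08 in DMSO and −2.39 ± 0.07 in abemaciclib. The gene was chosen from the same libraries, so none of these values was tested. *BHLHE40* (chromosome 3, 4979437 to 4985323, plus strand, GRCh38) shares 978 bases of its span with the antisense transcript *BHLHE40-AS1*. Whether reads were counted by strand is not given in the sources used here, so reads of such a pair cannot be told apart. By the Wald test of DESeq2 with Benjamini–Hochberg adjustment over all genes tested, *BHLHE40-AS1* had log2 fold changes with abemaciclib of 0.41 ± 0.21 (adjusted p = 0.0984) in sgControl cells and 0.35 ± 0.25 (adjusted p = 0.315) in the knockout.

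**Figure D1:**
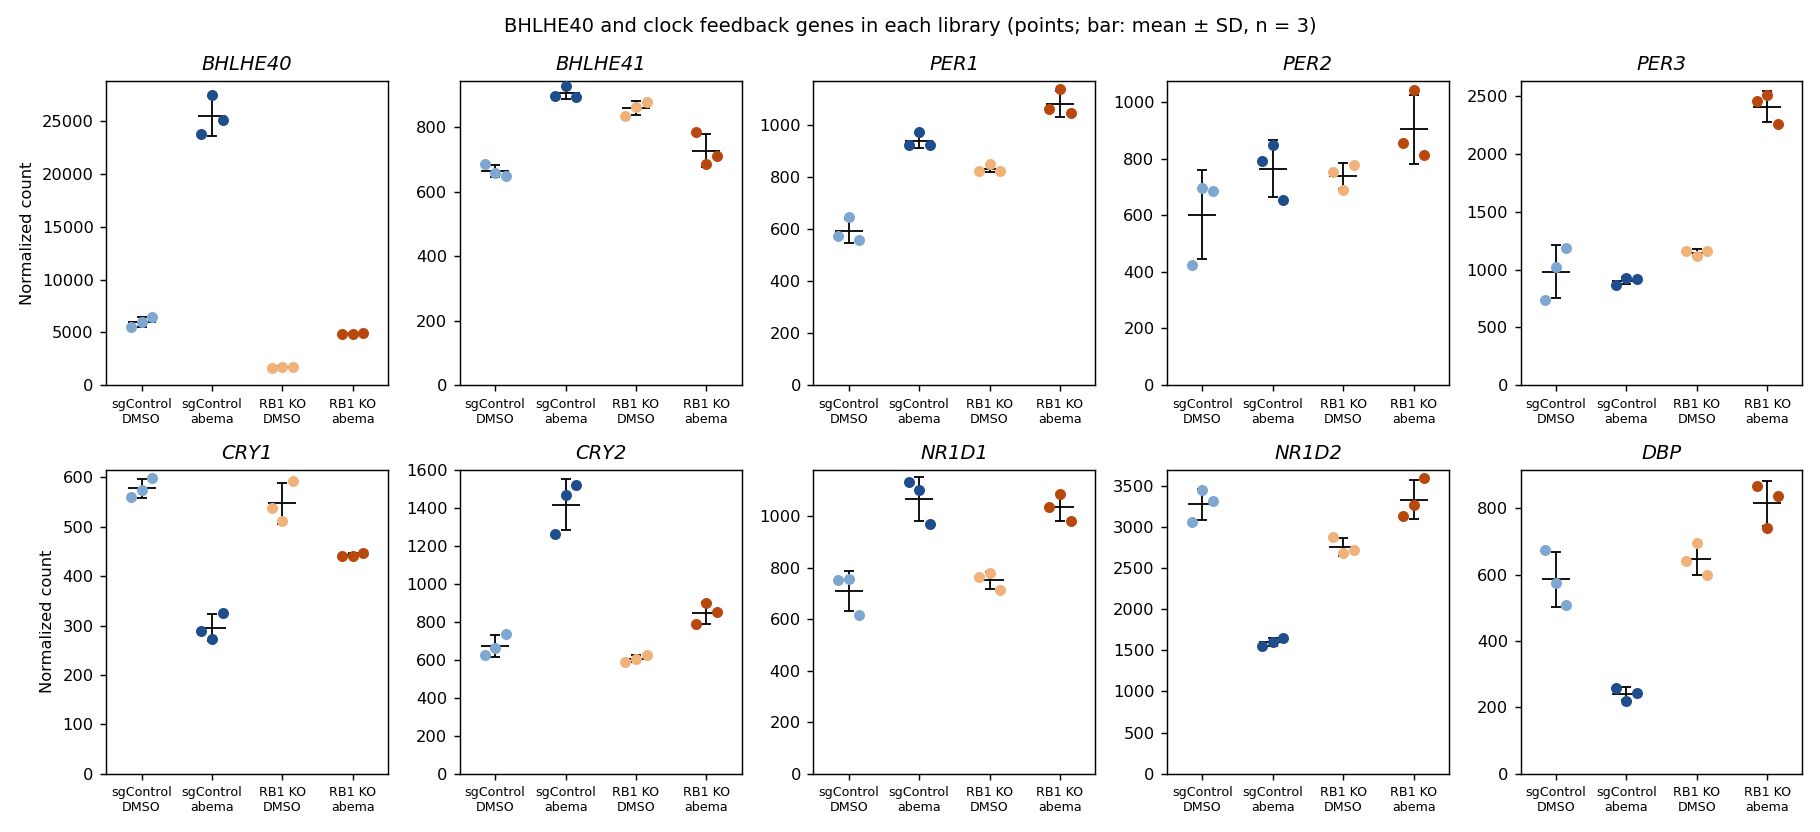
Normalized counts (vertical axes, each from 0) of the 10 genes in each library. Points are the 12 libraries, and bars give the mean ± SD of 3 replicates in sgControl and *RB1*-knockout (RB1 KO) cells in DMSO or abemaciclib (abema). *BHLHE40* stands at 23772 to 27530.2 in sgControl cells in abemaciclib and at no more than 6434 elsewhere, while *NR1D2* and *DBP* are lowest in that group.

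*BHLHE41*, which encodes the paralogous repressor, did not follow it. It had 685, 657 and 649 normalized counts in DMSO-treated sgControl cells and 896, 929 and 895 in abemaciclib. Knockout libraries had 835, 863 and 879 in DMSO and 786, 684 and 712 in abemaciclib. Abemaciclib thus went with higher values in sgControl cells and lower values in the knockout, without overlap in either genotype. The log2 fold change was 0.45 ± 0.07 in sgControl cells (adjusted p = 3.28e-09) and −0.24 ± 0.08 in the knockout (adjusted p = 0.00714), and these responses differed by −0.69 ± 0.11 (adjusted p = 3.93e-10). The fall in the knockout lost its call without replicate 3 of the knockout in DMSO (adjusted p = 0.0508) or replicate 2 of the knockout in abemaciclib (adjusted p = 0.076). *BHLHE41* (chromosome 12, 26120030 to 26125037, minus strand) shares 3047 bases with *SSPN* on the opposite strand, for which neither response passed the threshold (0.11 ± 0.07, adjusted p = 0.224, and 0.14 ± 0.08, adjusted p = 0.146).

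The 3 *PER* genes, which encode the period repressors, behaved differently from each other. *PER1* had 573, 644 and 558 normalized counts in DMSO-treated sgControl cells and 922, 971 and 921 in abemaciclib. Counts in the knockout were 824, 848 and 823 in DMSO and 1059, 1138 and 1046 in abemaciclib. It was higher with the drug in every library of both genotypes, by 0.67 ± 0.08 (adjusted p = 2.5e-17) in sgControl cells and 0.38 ± 0.08 (adjusted p = 1.05e-05) in the knockout on the log2 scale. The difference between these responses, −0.29 ± 0.11 (adjusted p = 0.0205), was not settled. It was −0.15 (adjusted p = 0.32) with total-count scaling and lost its call when any of 5 libraries was removed. These were sgControl replicates 3 in DMSO (adjusted p = 0.0821) and 2 in abemaciclib (adjusted p = 0.0724), and knockout replicate 2 in DMSO (adjusted p = 0.0645) and 1 and 3 in abemaciclib (adjusted p = 0.0591 and 0.0692). *PER1* (chromosome 17, 8140472 to 8156506, minus strand) shares 5691 bases with an unnamed gene model on its own strand, which was not used here.

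*PER2* had 423, 698 and 687 normalized counts in DMSO-treated sgControl cells and 791, 848 and 654 in abemaciclib. The knockout libraries held 751, 689.7 and 779 in DMSO and 856, 1043 and 812 in abemaciclib. The low value of 423 belonged to replicate 1 of sgControl in DMSO, and the groups overlapped in sgControl cells but not in the knockout. Neither response passed the threshold (0.34 ± 0.16, 95% interval 0.02 to 0.66, adjusted p = 0.0761 in sgControl cells, and 0.29 ± 0.16, 95% interval −0.03 to 0.61, adjusted p = 0.186 in the knockout). The sgControl response of *PER2* passed without sgControl replicate 2 (adjusted p = 0.0241) or 3 (adjusted p = 0.0197) in DMSO or 3 in abemaciclib (adjusted p = 0.0288), and with a replicate block (adjusted p = 0.0465). Without replicate 1 of sgControl in DMSO, which held the low value, it was 0.14 (adjusted p = 0.34). The knockout response of *PER2* passed without replicate 1 of sgControl in DMSO (adjusted p = 0.0216) and when only the knockout libraries were fitted (adjusted p = 0.0118).

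*PER3* had 739, 1019.7 and 1189 normalized counts in DMSO-treated sgControl cells and 869, 926 and 917 in abemaciclib. In *RB1*-knockout cells the values were 1161, 1115 and 1164 in DMSO and 2459.7, 2511 and 2258 in abemaciclib. The 3 knockout libraries in abemaciclib stood apart from all others, while the sgControl groups overlapped. *PER3* thus rose in the knockout by 1.07 ± 0.13, a 2.10-fold difference (adjusted p = 1.12e-15). In sgControl cells the log2 fold change was −0.12 ± 0.13 (95% interval −0.37 to 0.13, adjusted p = 0.467), and the responses differed by 1.19 ± 0.18 (adjusted p = 2.14e-10). *PER3* spread widely in sgControl cells in DMSO, with the lowest value in replicate 1 and the highest in replicate 3. Without replicate 1 of sgControl in DMSO the sgControl change was −0.29 (adjusted p = 0.000626). Over all removals of 1 library it ran from −0.29 to 0.04. *PER2* (chromosome 2, 238244044 to 238290102, minus strand) and *PER3* (chromosome 1, 7784291 to 7845177, plus strand) each overlap long non-coding RNAs on the opposite strand.

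The cryptochrome genes, whose products repress CLOCK and BMAL1 together with the period proteins, moved in opposite directions. *CRY1* had 559, 575 and 599 normalized counts in DMSO-treated sgControl cells and 289.9, 272 and 325 in abemaciclib. Without *RB1* the values were 538, 511 and 593 in DMSO and 441, 441 and 448 in abemaciclib. *CRY1* was lower with the drug in every library of both genotypes, and the sgControl libraries in abemaciclib were the lowest. It fell by 0.97 on the log2 scale in sgControl cells (SE 0.10, adjusted p = 1.53e-22) and by 0.31 in the knockout (SE 0.10, adjusted p = 0.00773), a difference of 0.66 ± 0.14 (adjusted p = 6.82e-06). Without replicate 3 of the knockout in DMSO, the fall of *CRY1* in the knockout had an adjusted p of 0.0866. *CRY1* lies on chromosome 12 (106991364 to 107093549, minus strand) and shares 252 bases with a long non-coding RNA on the opposite strand.

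*CRY2* had 624, 662 and 735 normalized counts in DMSO-treated sgControl cells and 1265, 1467 and 1522 in abemaciclib. In the knockout it had 586, 605 and 624 in DMSO and 787, 900.2 and 850.3 in abemaciclib. All drug-treated libraries were above all DMSO libraries. *CRY2* rose by 1.07 ± 0.09, a 2.10-fold difference, in sgControl cells (adjusted p = 1.3e-29) and by 0.48 ± 0.10 in the knockout (adjusted p = 9.5e-06), and the responses differed by −0.59 ± 0.14 (adjusted p = 5.94e-05). For both cryptochromes the change in the knockout had the direction seen in sgControl cells and a smaller size. *CRY2* (chromosome 11, 45847118 to 45883248, plus strand) overlaps no other annotated gene.

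Of the REV-ERB genes, *NR1D1* changed alike in both genotypes and *NR1D2* did not. *NR1D1* had 752, 754 and 618 normalized counts in DMSO-treated sgControl cells and 1132, 1102 and 969.9 in abemaciclib. Knockout libraries had 762, 779 and 715 in DMSO and 1036, 1084 and 982 in abemaciclib. Drug-treated libraries were above DMSO libraries in both genotypes, and the genotypes overlapped within each treatment. *NR1D1* rose by 0.60 ± 0.10 (adjusted p = 2.17e-09) in sgControl cells and by 0.46 ± 0.10 (adjusted p = 2.51e-05) in the knockout. The difference between these responses was −0.14 ± 0.14 (95% interval −0.40 to 0.13, adjusted p = 0.473).

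*NR1D2* had 3065, 3443 and 3310.4 normalized counts in DMSO-treated sgControl cells and 1549.7, 1605 and 1646 in abemaciclib. Counts in the knockout were 2883, 2681 and 2716 in DMSO and 3136, 3265 and 3593 in abemaciclib. The sgControl libraries in abemaciclib were the lowest of the 12 and the knockout libraries in abemaciclib were within or above the range of untreated sgControl cells. *NR1D2* fell by 1.03 on the log2 scale in sgControl cells (SE 0.07, adjusted p = 1.24e-48) and rose by 0.27 ± 0.07 in the knockout (adjusted p = 0.000566), a difference of 1.30 ± 0.10 (adjusted p = 6.41e-39). *NR1D1* (chromosome 17, 40092793 to 40100589, minus strand) shares 1075 bases with *THRA* and *NR1D2* (chromosome 3, 23945286 to 23980617, plus strand) 1306 bases with *NKIRAS1*, each on the opposite strand. *THRA* fell by 0.16 (SE 0.05, adjusted p = 0.00479) in sgControl cells and by 0.17 (SE 0.05, adjusted p = 0.00476) in the knockout. *NKIRAS1* rose by 0.62 ± 0.07 (adjusted p = 5.94e-16) in sgControl cells, the opposite of *NR1D2*, and its log2 fold change in the knockout was −0.09 ± 0.08 (adjusted p = 0.469).

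*DBP*, the D-box activator, had the strongest dependence on genotype among the 9 tested responses. It had 673, 575 and 508 normalized counts in DMSO-treated sgControl cells and 259.7, 221 and 243 in abemaciclib. The knockout libraries held 641, 696 and 600.2 in DMSO and 869, 739 and 838 in abemaciclib. The genotypes overlapped in DMSO and were far apart in abemaciclib. *DBP* fell by 1.28 on the log2 scale in sgControl cells (SE 0.12, adjusted p = 1.78e-24) and rose by 0.34 ± 0.12 in the knockout (adjusted p = 0.0164), a difference of 1.61 ± 0.17 (adjusted p = 1.97e-20). The rise of *DBP* in the knockout ran from 0.28 to 0.40 over all removals of 1 library, but its call did not hold in all of them. Without replicate 1 or 3 of the knockout in DMSO its adjusted p was 0.0596 or 0.101, and without replicate 1 or 3 of the knockout in abemaciclib it was 0.0982 or 0.0726. *DBP* (chromosome 19, 48630030 to 48637379, minus strand) shares 688 bases with *SPHK2* on the opposite strand, which rose by 0.33 ± 0.08 in sgControl cells (adjusted p = 0.000184) while *DBP* fell.

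**Figure D2:**
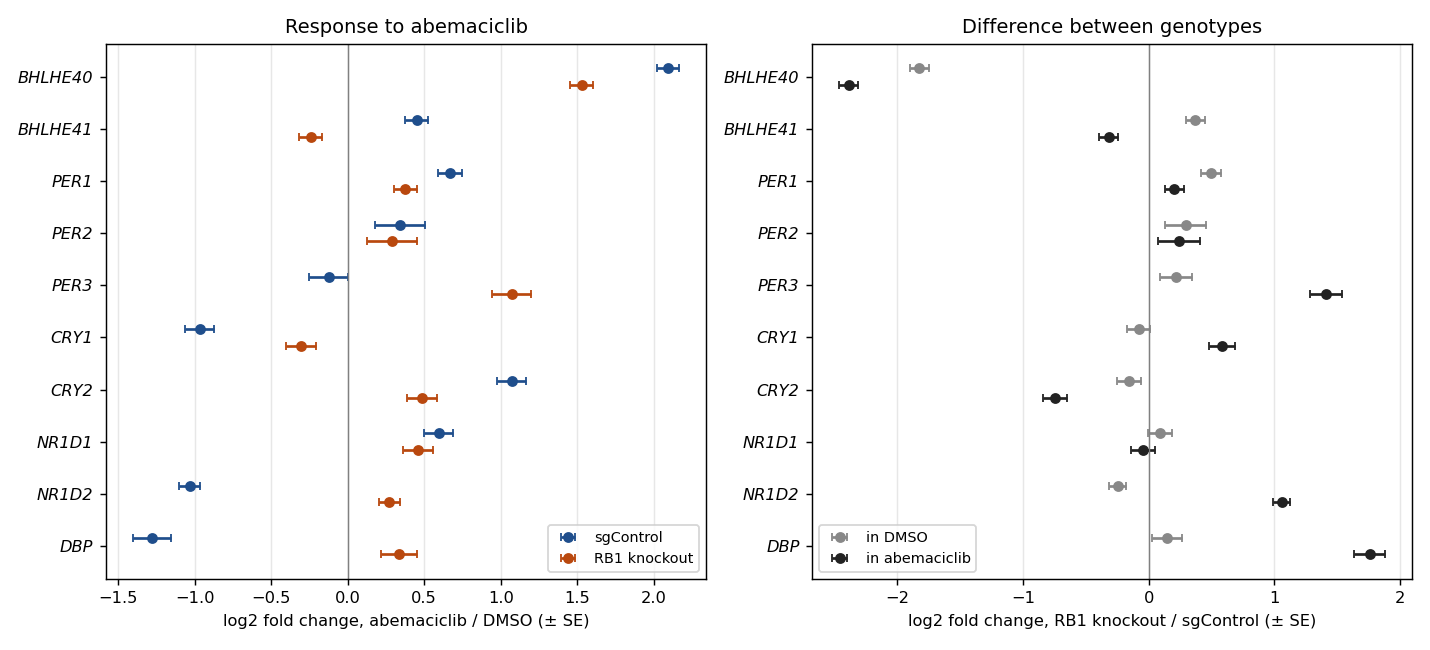
Log2 fold changes (horizontal axes) of the 10 genes, with SE as bars. The left panel gives abemaciclib against DMSO in sgControl (blue) and *RB1*-knockout cells (orange), and the right panel gives *RB1* knockout against sgControl in DMSO (grey) and in abemaciclib (black). In the left panel *NR1D2* and *DBP* lie at −1.03 and −1.28 in sgControl cells and at 0.27 and 0.34 in the knockout.

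Over the 9 members other than *BHLHE40*, 4 rose (*BHLHE41*, *PER1*, *CRY2* and *NR1D1*) and 3 fell (*CRY1*, *NR1D2* and *DBP*) in sgControl cells, where 24.1% of all genes tested were called higher and 23.9% lower. Their median log2 fold change was 0.34, against 0.01 over all genes tested. In the knockout 6 rose and 2 fell, where 15.0% of genes were called higher and 15.1% lower, and the median was again 0.34, against 0.02. Without replicate 3 of the knockout in DMSO only 5 of the 9 were called there. Calls over all genes also fell in that fit, from 2773 higher and 2802 lower to 2177 and 2252. The response was higher in the knockout for 4 members (*PER3*, *CRY1*, *NR1D2* and *DBP*) and lower for 3 (*BHLHE41*, *PER1* and *CRY2*), against 21.0% and 20.2% of all genes. The median difference was −0.05, against 0.03. The 4 members with a higher response in the knockout were of different kinds. *CRY1* fell in both genotypes and by less in the knockout, *PER3* rose there without a called change in sgControl cells, and *NR1D2* and *DBP* changed sign. Directions are relative to the median gene, which total-count scaling moved by −0.13 in sgControl cells and by 0.14 for the difference between responses. It changed the split of all called genes in sgControl cells from 5657 higher and 5615 lower to 4529 and 6774, and that of the difference from 4415 and 4250 to 5466 and 3099.

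The genotypes were compared within each treatment to show where the members differed before and after the drug. In DMSO, 2 of the 9 members other than *BHLHE40* were called higher in the knockout (*BHLHE41* and *PER1*) and 1 was called lower (*NR1D2*), against 16.2% and 15.2% of all genes tested. *BHLHE41* was higher by 0.37 ± 0.07 (adjusted p = 6.02e-06), *PER1* by 0.49 ± 0.08 (adjusted p = 5.78e-09), and *NR1D2* was lower by −0.25 ± 0.07 (adjusted p = 0.00178). The 6 others did not pass, with log2 fold changes between −0.16 (*CRY2*) and 0.29 (*PER2*). Of these, *PER3* was called higher without replicate 3 of sgControl in DMSO (0.38, adjusted p = 0.0029), and *DBP* reached an adjusted p of 0.05 without replicate 1 of that group. The median over the 9 members was 0.15, against −0.00 over all genes.

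In abemaciclib, 5 of the 9 were called higher in the knockout and 2 lower, against 27.5% and 26.4% of all genes. *DBP* was higher by 1.76 ± 0.12, a 3.39-fold difference (adjusted p = 9.29e-46), *PER3* by 1.41 ± 0.13 (adjusted p = 3.41e-28), *NR1D2* by 1.06 ± 0.07 (adjusted p = 1.34e-50) and *CRY1* by 0.58 ± 0.10 (adjusted p = 2.33e-08). *PER1* was higher by 0.20 ± 0.08 (adjusted p = 0.014), a call that was lost without sgControl replicate 1 (adjusted p = 0.0667) or 3 (adjusted p = 0.0693) in abemaciclib or knockout replicate 2 in abemaciclib (adjusted p = 0.0996). *CRY2* (−0.75 ± 0.09, adjusted p = 7.27e-15) and *BHLHE41* (−0.32 ± 0.07, adjusted p = 5.05e-05) were lower. *BHLHE41* and *NR1D2* thus differed between genotypes in opposite directions in the 2 treatments. *PER2* (0.24 ± 0.16, adjusted p = 0.213) passed without replicate 1 of sgControl in DMSO (adjusted p = 0.042), and *NR1D1* did not pass (−0.05 ± 0.09, adjusted p = 0.725). The median over the 9 members was 0.24, against 0.02, and total-count scaling moved the median gene by 0.11 and the split of all called genes from 6117 higher and 5885 lower to 6990 and 4819.

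Levels were compared between genes as normalized counts per kilobase of annotated exon. *BHLHE40* had the highest such level of the 10 in sgControl cells in DMSO, at 1699 ± 134 (SD, n = 3), and in abemaciclib, at 7247 ± 541. It was also the highest in the knockout in abemaciclib, at 1385 ± 19.2. In the knockout in DMSO, *BHLHE40* (480 ± 25.5 per kilobase) and *NR1D2* (476 ± 18.6 per kilobase) did not differ beyond their spread. *NR1D2* was next to *BHLHE40* in untreated sgControl cells, at 565 ± 33.1 per kilobase, but in sgControl cells in abemaciclib its 276 ± 8.31 per kilobase was below the 406 ± 32.7 of *NR1D1*. By this length, *DBP* in sgControl cells in abemaciclib had the lowest level of any member in any group, at 37.2 ± 3.05 per kilobase. The length joins the exons of all annotated transcripts, 6485 bases for *DBP*. A rank between genes therefore depends on which transcripts are annotated, and levels by the transcripts in use were not computed. The remaining members lay between 61.8 (*CRY1*) and 296 (*PER3*) per kilobase.

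The rest of the clock was read from lists of activators, output factors and protein modifiers. Among 7 activator genes, 3 were called higher and 3 lower with the drug in sgControl cells, against 2 higher and 0 lower in the knockout. Over all genes tested these shares were 24.1% and 23.9% in sgControl cells and 15.0% and 15.1% in the knockout. In sgControl cells the core activators changed by less than *BMAL2* and *RORB*, which are given below. *BMAL1* rose by 0.24 ± 0.09 (adjusted p = 0.0159) and *CLOCK* fell by 0.52 (SE 0.10, adjusted p = 1.89e-07) in sgControl cells, and neither passed in the knockout (−0.05 ± 0.09, adjusted p = 0.764, and −0.06 ± 0.10, adjusted p = 0.709).

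*BMAL2*, a paralogue of *BMAL1*, had 756, 925 and 1010.4 normalized counts in DMSO-treated sgControl cells and 89.4, 121 and 109 in abemaciclib, against 1308 to 1492 and 1501 to 1689 in the knockout. *BMAL2* fell by 3.07 on the log2 scale in sgControl cells (SE 0.13, adjusted p = 5.35e-115) and its change in the knockout was 0.17 ± 0.11 (adjusted p = 0.245), a difference of 3.24 ± 0.17 (adjusted p = 2.74e-76). *BMAL2* thus moved further in sgControl cells than any of the 9 tested members. *RORB*, a ROR receptor gene, fell by 2.58 in sgControl cells (SE 0.21, adjusted p = 3.54e-32) and rose by 0.64 ± 0.17 in the knockout (adjusted p = 0.00115).

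Of 4 output factor genes, 1 rose in sgControl cells (24.1% of all genes) and all 4 rose in the knockout (15.0% of all genes). *TEF*, which like *DBP* encodes a D-box activator, rose in both genotypes, by 0.64 ± 0.08 (adjusted p = 1.4e-16) and 0.43 ± 0.08 (adjusted p = 1.05e-06), whereas *DBP* fell in sgControl cells. *CIART*, a clock repressor gene, had 145, 105 and 105 normalized counts in DMSO-treated sgControl cells and 117, 116 and 167 in abemaciclib. Without *RB1* the values were 56.0, 61.7 and 64.8 in DMSO and 187, 193 and 187 in abemaciclib. *CIART* rose by 1.63 ± 0.21 in the knockout (adjusted p = 3.13e-13), and its response there exceeded that in sgControl cells by 1.44 ± 0.28 (adjusted p = 1.89e-06). As for *PER3*, the groups overlapped in sgControl cells and the drug-treated knockout formed a separate, higher group. Unlike *PER3*, *CIART* was lower in every untreated knockout library than in any untreated sgControl library.

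Among 8 tested genes for proteins that modify clock proteins, 4 were called higher and 3 lower in sgControl cells, against 1 and 1 in the knockout. Over all genes tested, 24.1% were called higher and 23.9% lower in sgControl cells, and 15.0% and 15.1% in the knockout. Another list member, *FBXL21P*, had no counts. *TIMELESS*, which is better known for its part in DNA replication than in the mammalian clock, fell by 1.18 in sgControl cells (SE 0.06, adjusted p = 1.8e-85) and had a log2 fold change of −0.08 ± 0.06 in the knockout (adjusted p = 0.346). The casein kinase 1 genes *CSNK1D* and *CSNK1E*, whose products phosphorylate period proteins, rose by 0.43 ± 0.04 (adjusted p = 2.67e-27) and 0.35 ± 0.07 (adjusted p = 4.02e-07) in sgControl cells. In the knockout *CSNK1D* fell by 0.15 (SE 0.04, adjusted p = 0.0012), and the log2 fold change of *CSNK1E* was −0.10 ± 0.07 (adjusted p = 0.263).

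**Figure D3:**
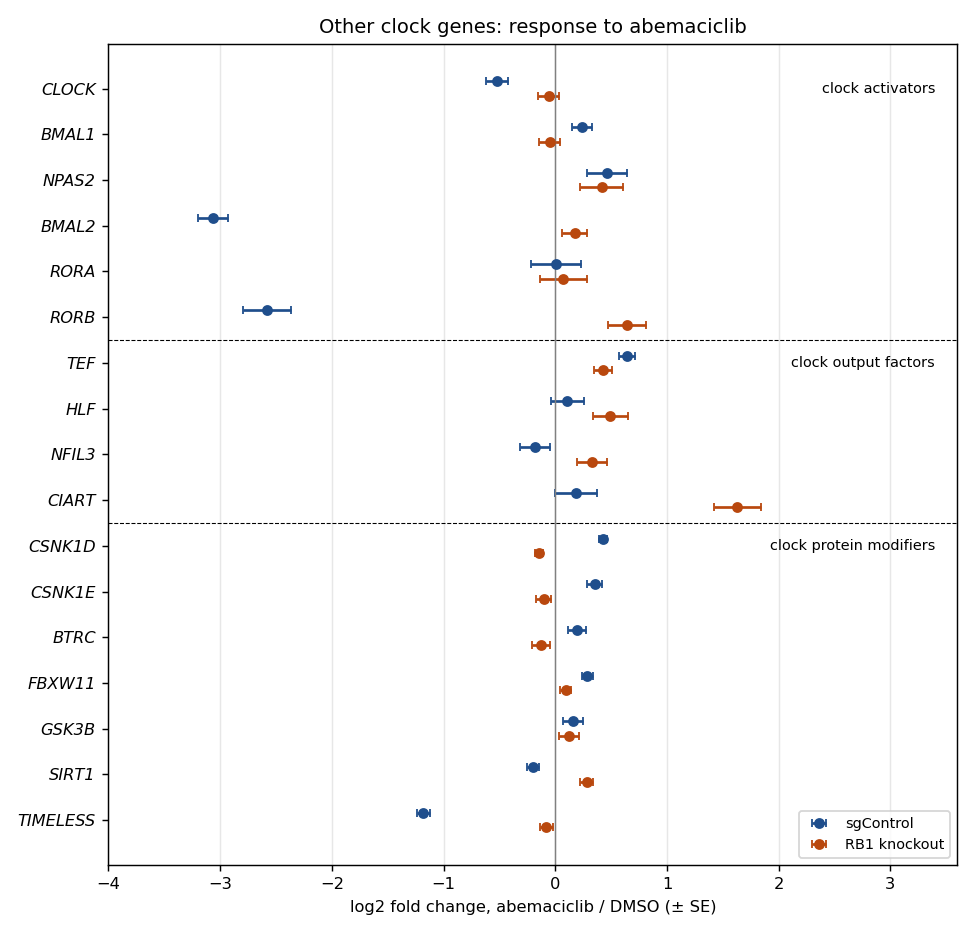
Log2 fold change with abemaciclib (horizontal axis, bars give SE) of genes listed as clock activators, output factors and protein modifiers in sgControl (blue) and *RB1*-knockout cells (orange). *BMAL2* lies at −3.07 and *RORB* at −2.58 in sgControl cells, against 0.17 and 0.64 in the knockout.

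Further lists held genes of signals known to induce *BHLHE40* or *PER1*. Among 9 tested hypoxia response genes, 4 were called higher and 1 lower in sgControl cells, against 2 and 4 in the knockout, beside 24.1% and 23.9% of all genes in sgControl cells and 15.0% and 15.1% in the knockout. *EGLN3* and *ADM* rose in sgControl cells by 1.17 ± 0.09 (adjusted p = 1.15e-34) and 1.17 ± 0.14 (adjusted p = 4.47e-16), and *NDRG1* fell by 0.71 (SE 0.19, adjusted p = 0.000741). In the knockout *ADM* rose by 0.74 ± 0.11 (adjusted p = 9.11e-10) and *EGLN3* fell by 0.65 (SE 0.12, adjusted p = 3.16e-07), and *NDRG1* fell by 1.71 (SE 0.22, adjusted p = 6.47e-13). *VEGFA* rose in both genotypes, by 0.55 ± 0.10 (adjusted p = 3.35e-08) in sgControl cells and 0.48 ± 0.10 (adjusted p = 9.32e-06) in the knockout. Of 7 genes responsive to CREB, a factor that also acts on *PER1*, 4 were called higher and 2 lower in sgControl cells, against 3 and 2 in the knockout, beside the same shares of all genes (24.1% and 23.9%, and 15.0% and 15.1%). *DUSP1* rose by 3.26 ± 0.13 (adjusted p = 2.67e-145) and 2.52 ± 0.13 (adjusted p = 1.4e-82), and *FOSB* by 3.00 ± 0.20 (adjusted p = 4.81e-52) and 3.18 ± 0.21 (adjusted p = 8.39e-51), in sgControl and knockout cells. *NR4A1* rose by 1.01 ± 0.09 (adjusted p = 1.39e-25) and 0.75 ± 0.10 (adjusted p = 2.73e-13). *NR4A2* rose by 1.78 ± 0.16 in sgControl cells (adjusted p = 2.85e-26), and its log2 fold change in the knockout was −0.24 ± 0.21 (adjusted p = 0.437). The 2 called lower in sgControl cells were *CREM* and *NR4A3*. Mean normalized counts of *CREM* were 883 in DMSO and 528 in abemaciclib in sgControl cells, and 827 and 658 in the knockout. Those of *NR4A3* were 79.4 and 20.2 in sgControl cells, and 103 and 50.6 in the knockout.

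The genes whose profile was most like that of *BHLHE40* were ranked over the 12 libraries, by the root mean square difference of log2(normalized count + 1) after centring each gene on its mean. Among 11884 other genes with a mean of at least 100 normalized counts, these were *EGR3* (0.16), *TENT5C* (0.29), *RET* (0.35), *DOK7* (0.35) and *RSPH1* (0.37). *EGR3*, an immediate-early transcription factor gene, had 1459, 1786 and 1746 normalized counts in DMSO-treated sgControl cells and 8279, 8568 and 8615 in abemaciclib. In the knockout it had 462, 492 and 409 in DMSO and 1597, 1418 and 1568 in abemaciclib. Like *BHLHE40*, it was highest in sgControl cells in abemaciclib and lowest in the knockout in DMSO. Since the ranking used these values, they are a description without a test, and no member of the clock set was among the 5.

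**Figure D4:**
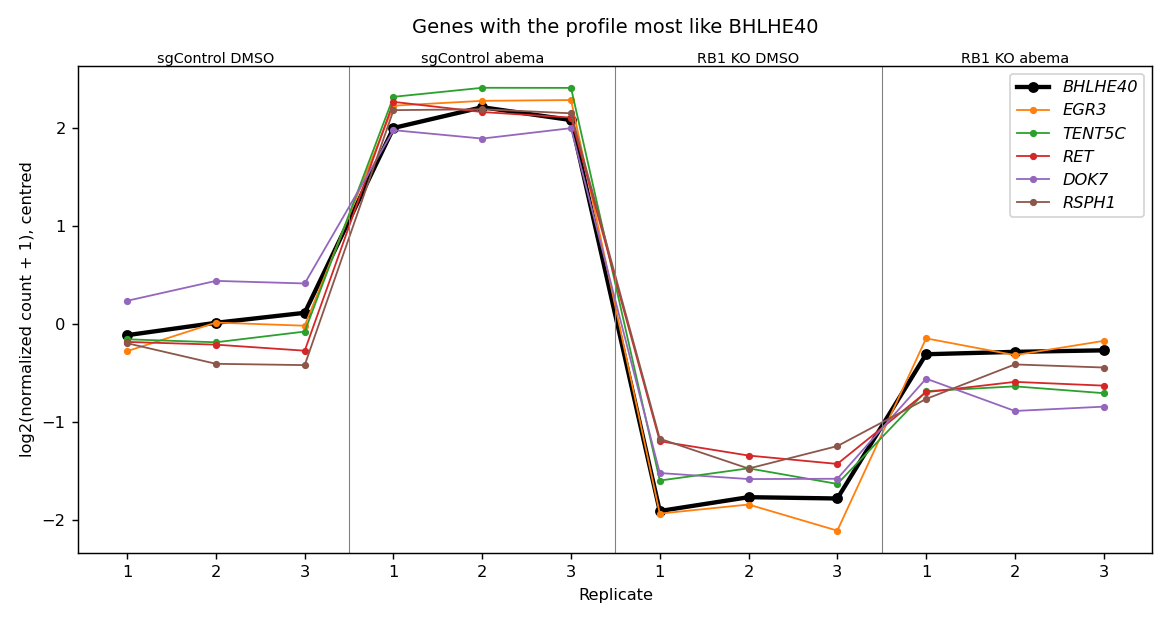
Centred log2(normalized count + 1) (vertical axis) of *BHLHE40* and the 5 genes most like it in the 12 libraries, by group and replicate (horizontal axis). Lines join the values of a gene and replicates have no order. *BHLHE40* (black) and *EGR3* (orange) differ by a root mean square of 0.16.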

How the data were processed

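RNA sequencing of ZR-75-1 cells gave 12 libraries, grouped by their titles. The values are raw counts per gene that the authors deposited in 1 table: reads were trimmed with BBDuk, aligned to hg38 with STAR 2.7.5b and counted with featureCounts 2.0.1, per the submitters' processing notes. Strand setting and treatment of multiply aligned reads are not given in the sources used here. The labels name a directional whole-transcript kit and the study's general methods a 3′ mRNA kit. With a 3′ kit, levels per kilobase would not hold. The table's 60656 rows included 44 named NA, which held 0% of the counts and were left out.

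The members and the lists were chosen with earlier results of these data known. All members passed the filter on low values. In R 4.3.3, DESeq2 1.42.0 was fitted once to all 12 libraries by group, with median-of-ratios size factors and no shrinkage. The 5 contrasts were tested by two-sided Wald tests, adjusted by Benjamini–Hochberg over all genes left by independent filtering and called at an adjusted p under 0.05. Besides the members, the text names genes that overlap them, the 5 profiles most like *BHLHE40* and, per list, up to 4 genes with a mean of at least 100 normalized counts and a called change in sgControl cells, by size. *CIART*, *BMAL1*, *CREM* and *NR4A3* are named outside this rule and were chosen after their values were seen. The alternatives were edgeR 4.0.16 (quasi-likelihood), other size factors and filters, a replicate block, only the groups compared, and leaving out each library. The scripts were tested on simulated data. The lowest chi-square per gene between replicates was 3.32, so no library was a copy of another. What replicate numbers share is not stated in the labels. In abemaciclib, same-numbered sgControl and knockout libraries deviated together (correlations of 0.15, 0.26 and 0.11), which did not hold for all pairs elsewhere. Positions are from GENCODE release 44 on GRCh38, another release than the authors used, and promoters from RefSeq. Protein sequences were not used here. Some genes that the rule selects are not reported here, though the counts over the lists include them.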

Additional observations from a re-analysis of the deposited data

Results flagged for a closer look

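The response to abemaciclib differed between the genotypes, by the interaction term of the DESeq2 model, for 7 of the 9 members tested, against 21.0% of all genes called higher and 20.2% called lower. It was higher in the knockout for *DBP* (1.61 ± 0.17 on the log2 scale, adjusted p = 1.97e-20, 1.63e-07 at most in the alternative fits), *NR1D2* (1.30 ± 0.10, adjusted p = 6.41e-39, at most 7.45e-09), *PER3* (1.19 ± 0.18, adjusted p = 2.14e-10, at most 1.86e-05) and *CRY1* (0.66 ± 0.14, adjusted p = 6.82e-06, at most 0.000243). It was lower in the knockout for *BHLHE41* (−0.69 ± 0.11, adjusted p = 3.93e-10, at most 1.26e-05), *CRY2* (−0.59 ± 0.14, adjusted p = 5.94e-05, at most 0.0215) and *PER1* (−0.29 ± 0.11, adjusted p = 0.0205, from 0.00502 to 0.32). Of these, *BHLHE41*, *NR1D2* and *DBP* were called in opposite directions in the genotypes.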

How the results depend on the processing

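Over 846 alternative fits of the 9 tested members, 812 kept their direction and side of the threshold, 7 changed sign without being called in either fit, 16 lost a call, 11 gained one and 0 called values reversed. The fits are not independent checks. They include removals of libraries outside the groups compared, and leaving out independent filtering changed only the adjusted p. The *RB1*-knockout response was the least steady, with 5 to 9 of the 9 tested members called when 1 library was left out (8 in the full data, 5 without replicate 3 of the knockout in DMSO). Over the same removals, the number of all genes called for that response ran from 4341 to 6692 (5575 in the full data). edgeR called the same number of members as DESeq2 in all 5 comparisons. With a replicate block, 11078 genes were called for the sgControl response (11272 without it), 5382 (5575) for the knockout response, 8514 (8665) for their difference, and 6031 (6201) and 11754 (12002) for the genotypes in DMSO and abemaciclib. The replicate block changed 1 call of a member, that of *PER2* in sgControl cells (adjusted p = 0.0465). Depth did not limit the members, whose lowest value was 221 normalized counts.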
